A study of Homo sapiens with 114 samples.

Results

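The 7 genes described here are NQO1, CBR1, CBR3, EPHX1, UGDH, PIR and OSGIN1, a set built around quinone and carbonyl detoxification. They were chosen by symbol out of 19775 genes with a probe set of 1 symbol, with 9 of the probe sets of the array between them. Earlier results of these data were known at that choice, so their counts beside all genes are a description of the set. NQO1 had 3 probe sets and each other gene had 1. All values below are deposited log2 values, so a difference of 1 is a doubling, and they were set against controls in all 26 treated groups. HK-2 cells, an immortalized line of human renal proximal tubule epithelium, were grown in medium with insulin, hydrocortisone, transferrin and selenite and treated near confluence. The compounds are known here only as CsA, Aa, Nnm, Kbr, Ota, Fk, Ra, CdCl and Di, and doses only as high or low. Single-dose cultures (CdCl, Di, Fk, Ra, CsA) were sampled at 12 and 48 h. Cultures at a high or a low dose were sampled at 24 and 48 h for Kbr, Nnm and Aa, and at 24 and 72 h for Ota. Vehicle controls of the same times formed 6 families, 3 of which served a pair of compounds (Nnm and Kbr; CdCl and Di; Fk and Ra) and 3 a single one (Ota, Aa, CsA). Each of the 38 groups (26 treated, 12 control) had 3 arrays that the labels call biological replicates of 1 cell line.

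NQO1 transfers a pair of electrons from NADH or NADPH to quinones in 1 step, which yields hydroquinones and bypasses the reactive semiquinone; it also reduces nitro groups of some aromatic compounds. CBR1 and CBR3 are NADPH-dependent carbonyl reductases, EPHX1 is the microsomal epoxide hydrolase, and UGDH makes UDP-glucuronate, the sugar donor of glucuronidation. PIR (pirin) is an iron-binding nuclear protein with quercetinase activity, and OSGIN1 is an oxidative-stress-induced growth inhibitor. Many of these genes are known targets of NRF2 (NFE2L2), a transcription factor that KEAP1 marks for degradation until electrophiles or oxidants modify it, and that then binds antioxidant response elements (AREs) with small MAF proteins.

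Start-site sequences were read because the members rose together with several compounds. RefSeq windows from 250 bases before to 50 bases after a start site (GRCh38.p14) matched 6 of the 7 genes, EPHX1 with 3 windows, and CBR3 had no entry. The letters searched on both strands were the ARE core TGACNNNGC, the AP-1 site TGACTCA or TGAGTCA, and the xenobiotic response core GCGTG. They occurred in 13.3%, 4.95% and 36.5% of all 35116 windows. The ARE core was found once each in CBR1, PIR and the third EPHX1 window, and no such match lay in the windows of NQO1, UGDH and OSGIN1. The PIR match lay 27 to 35 bases downstream of the start and overlapped its AP-1 match. OSGIN1 held an AP-1 site 97 to 91 bases upstream, which overlapped a GCGTG match on the other strand. GCGTG occurred once in NQO1, in the part of its window downstream of the start, and not in PIR. The 4 stretches with these matches follow, each 30 bases on the gene's strand, with the ARE core or AP-1 site in capitals, and then the 250 bases upstream of NQO1 and OSGIN1, the genes with the largest rises. A match is a description of letters, not of binding. Bases more than 250 upstream of a start were not searched, so a gene without a match here may hold one outside its window.
CBR1 (ARE core; chr21:36069855-36069884, plus strand): tgcgggttctGCAAAGTCAggctagctggc
EPHX1 (ARE core; chr1:225825266-225825295, plus strand): tgagattggcTGACTTGGCaggactgtgca
PIR (ARE core; chrX:15493288-15493317, minus strand): gccgcgaagcGCTGAGTCAcggtgaggcta
OSGIN1 (AP-1 site; chr16:83953132-83953161, plus strand): cgggcccctgcTGACTCAcgcttatgaaag
NQO1 (upstream 250 bases; chr16:69726561-69726810, minus strand): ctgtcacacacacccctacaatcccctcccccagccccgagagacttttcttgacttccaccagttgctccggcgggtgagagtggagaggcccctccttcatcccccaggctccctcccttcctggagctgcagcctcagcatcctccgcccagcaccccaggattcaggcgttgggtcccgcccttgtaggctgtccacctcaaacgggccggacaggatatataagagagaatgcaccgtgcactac
OSGIN1 (upstream 250 bases; chr16:83952990-83953239, plus strand): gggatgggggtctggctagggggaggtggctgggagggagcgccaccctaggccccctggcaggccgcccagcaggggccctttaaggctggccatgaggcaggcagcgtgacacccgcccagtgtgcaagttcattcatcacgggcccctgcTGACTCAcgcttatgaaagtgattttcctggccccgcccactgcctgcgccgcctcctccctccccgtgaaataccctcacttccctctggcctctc

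The arrays carried the epithelial genes KRT8 and KRT18, the renal factor PAX8 and CDH2 above log2 4 on every array, and CDH1 on 111. PAX2, a further renal factor, exceeded log2 4 on 0 arrays (highest 2.86). Markers that define mature proximal tubule were at background: ANPEP, LRP2, CUBN, AQP1, SLC34A1, SLC5A2 and SLC22A6 exceeded log2 4 on 0 arrays, and GGT1 on 5. PTPRC, CDH5 and PDGFRB exceeded it on 0 arrays, PECAM1 on 2, and COL1A1 on every array. The difference between 3′ and 5′ ACTB control probes, a sign of RNA integrity, ranged 0.72 to 2.30 over the arrays. It separated treated from control arrays in 2 of 26 comparisons, Ota high at 72 h (1.66 to 2.30 in treated cultures, 1.16 to 1.51 in controls) and Di at 12 h (1.23 to 1.55 in treated cultures, 1.82 to 2.09 in controls). Its part in those results was not tested.

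Across all comparisons with control, 59 of 176 member tests were called higher and 11 lower at a limma adjusted p under 0.05, beside 11.8% of all gene tests called higher and 15.1% lower. NQO1 rose in 14 and fell in 3 of 26 comparisons, PIR rose in 10 and fell in 3, and CBR1 rose in 8 and fell in 1. UGDH rose in 7 and fell in 1, EPHX1 rose in 6 and fell in 1, and CBR3 rose in 4 and fell in 2. OSGIN1 rose in 10 and fell in 0 of the 20 comparisons in which it was tested. In the Aa, Nnm with Kbr and CdCl with Di families it passed the filter on low values (log2 over 4 on 3 or more arrays of the family) through treated arrays alone, with 0 of 6 control arrays over 4 in each, so its count there is no support of its own. All 10 of its calls lay in these families and are part of the 59 higher calls above. They are also counted among the members by compound below, which share this limit. Those are the counts for CdCl, Aa high and Kbr high at both times and Di at 48 h. Kbr low and Aa low at 48 h and Nnm high at 24 h are the others. Direct comparisons and differences of response between times within these families carry the limit too. In the Fk with Ra family 5 of 12 treated and 3 of 6 control arrays exceeded 4. The other genes passed in all 6 families.

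By compound, all 7 genes rose with Di at 48 h, when 21.4% of genes tested were called higher. With CdCl 6 of 7 rose at 12 h (14.5% of all genes) and at 48 h (22.9%). Kbr high raised 5 of 7 at 24 h (8.17%) and 6 of 7 at 48 h (22.2%), and Kbr low raised 2 of 7 at 24 h (0.671%) and 6 of 7 at 48 h (15.2%). Nnm high raised 4 of 7 at 24 h (17.6%) and 2 of 7 at 48 h (15.4%), while Nnm low raised 2 of 7 (9.39%) and 1 of 7 (8.39%). Aa high raised 3 of 7 at 24 h (26%); at 48 h 5 rose (29.8%) and 2 fell (34.5% of all genes called lower). Aa low at 48 h raised 2 (17.7%) and lowered 2 (19.3%), and Di at 12 h raised 2 of 7 (3.61%). Ota high lowered 3 of 6 tested genes at 24 h (43.6% of all genes called lower) and 3 of 6 at 72 h (37.9%), shares near those of all genes, and Ota low lowered 1 of 6 at 72 h (7.02%). Some of these falls with Ota high held in every alternative that tested the gene and without every single array. They were PIR at 24 h (−2.24) and NQO1 (−3.55) and CBR3 (−0.79) at 72 h. CBR3 was not tested with a filter at log2 6, since its highest Ota array stood at 5.35. The other falls with Ota high depend on the scaling. Centring on array medians, here and below, used the median of the genes whose mean over all arrays exceeded log2 4. With arrays centred on their medians, CBR1 (0.07) and CBR3 (0.15) were not called at 24 h. UGDH (0.53, limma adjusted p = 0.00516) and EPHX1 (0.77, limma adjusted p = 0.000766) were then called higher at 24 h. At 72 h centring left EPHX1 uncalled (−0.14) and CBR1 called higher (0.46, limma adjusted p = 0.0302). Centring also moved the share of higher among all calls with Ota high at 24 h to 64.2%, against 32.9% as deposited. No member was called by limma with CsA, Fk or Ra, nor with Aa low or Ota low at 24 h. In those 8 comparisons 9 of 53 tests had an unadjusted p under 0.05, and 2 were called with a mean-variance trend in limma and 3 with all arrays in 1 fit. With replicates blocked by number, in families whose numbers pair the arrays, Aa low at 24 h had UGDH higher (0.44, limma adjusted p = 0.0037) and PIR lower (−0.53, limma adjusted p = 0.0189). The block also gave 5 genes higher in place of 2 with Kbr low at 24 h, 4 in place of 2 with Nnm low at 24 h, 3 in place of 1 with Nnm low at 48 h, 4 in place of 2 with Aa low at 48 h, and PIR lower with Aa high at 24 h. Calls of all genes, in either direction, rose with it too. With Kbr low at 24 h they went from 150 to 857 of 11036. With Nnm low they went from 2044 to 3522 at 24 h and from 1558 to 2948 at 48 h. With Aa low they went from 2576 to 4163 of 11106 at 24 h and from 4111 to 5745 at 48 h. With Aa high at 24 h they went from 5546 to 6901. Over all genes, CsA had 0% called at 12 h and 0.00925% at 48 h, Fk 0.00918% and 0%, and Ra 0.0367% and 9.33%, while Aa low at 24 h had 23.2% and Ota low at 24 h 13.7%. The counts behind CsA and Ra at 48 h depend on the fit: CsA 48 h had 1 gene called, but 206 with the block and 613 with all arrays in 1 fit, and Ra 48 h had 1016, but 0 with only the arrays of the comparison and 3414 with all arrays in 1 fit.

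**Figure D1:**
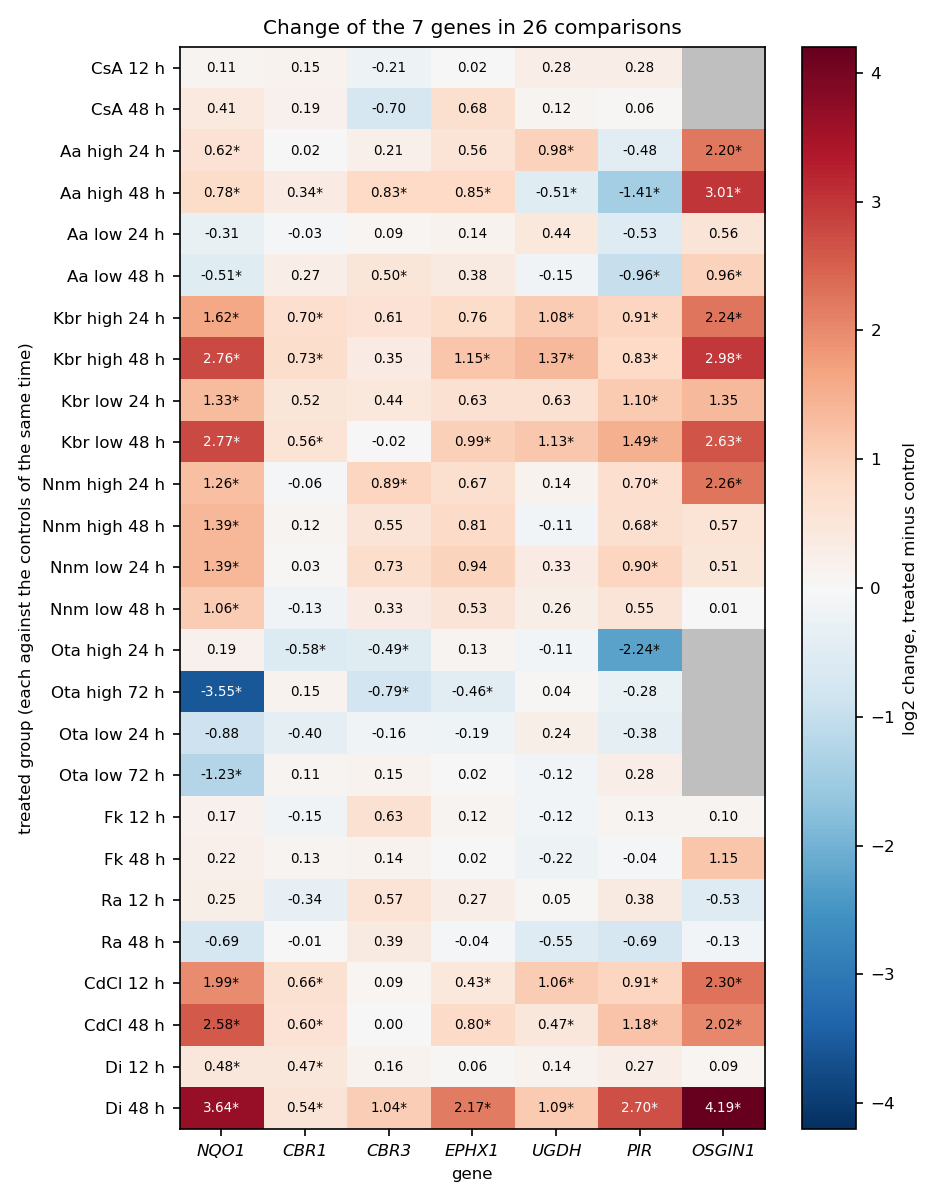
Log2 change (treated minus control) of the 7 genes, columns, in the 26 treated groups, rows; red is higher, blue is lower, grey was not tested, and * marks an adjusted p under 0.05 (limma). The columns of NQO1 and OSGIN1 hold the largest rises, 3.64 and 4.19 with Di at 48 h, and the largest fall is NQO1 with Ota high at 72 h, 3.55 below control.

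NQO1 with Di at 48 h stood at 13.72, 13.69 and 13.68, against 10.04, 10.03 and 10.08 in controls, a 12.5-fold rise (log2 change 3.64, SE 0.085, adjusted p = 1.97e-13). The arrays within each group lay within 0.1 of each other, and the groups were far apart. At 12 h of Di the values were 11.32, 11.17 and 11.39, against 10.96, 10.83 and 10.66 in controls (change 0.48, adjusted p = 0.00367), and this small rise was lost with all arrays in 1 fit (adjusted p = 0.557) or with only the arrays of the comparison (adjusted p = 0.0796). CdCl gave NQO1 12.79, 12.84 and 12.78 at 12 h, against 10.96, 10.83 and 10.66 in controls (change 1.99, SE 0.085, adjusted p = 1.28e-10). At 48 h it had 12.77, 12.58 and 12.55 with CdCl, against 10.04, 10.03 and 10.08 in controls (change 2.58, adjusted p = 8.54e-12). CdCl had thus raised NQO1 at the first time sampled, and no CdCl array overlapped a control. The probe sets of NQO1 differed on whether the CdCl rise was larger at 48 h: the change at 48 minus that at 12 h was 0.59 in the probe set used here, 0.36 in a further one and −0.06 in the third.

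Kbr at 48 h raised NQO1 to 13.17, 13.33 and 13.10 at the high dose, against 10.27, 10.44 and 10.61 in controls, a 6.76-fold difference (change 2.76, SE 0.25, adjusted p = 1.15e-08). The low dose gave 13.31, 13.30 and 13.01 against the same controls (change 2.77, adjusted p = 2.75e-07), and the doses differed by −0.01 (95% interval −0.52 to 0.51). Earlier, at 24 h, NQO1 had 12.67, 12.85 and 12.40 with Kbr high, against 10.98, 11.10 and 10.98 in controls (change 1.62, adjusted p = 0.000121). Kbr low at 24 h gave 12.45, 12.54 and 12.03 (change 1.33, adjusted p = 0.0125); the call was lost without replicate 1 of the 24 h controls (1.31, adjusted p = 0.0926) or replicate 2 of Kbr low (1.23, adjusted p = 0.0659). The rise with Kbr high was larger at 48 than at 24 h by 1.14. This was not called in the fit used here (limma adjusted p = 0.0988). It passed with the replicate number as a block (0.0486) and with only the arrays of the comparison (0.0132). It also passed without replicate 2 of Nnm high at 48 h (0.0328).

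With Nnm NQO1 rose in all 4 groups by 1.06 to 1.39. Nnm high gave 12.33, 12.30 and 12.19 at 24 h, against 10.98, 11.10 and 10.98 in controls (change 1.26, adjusted p = 0.000828). At 48 h the values were 12.18, 11.10 and 12.20, against 10.27, 10.44 and 10.61 in controls (change 1.39, adjusted p = 0.00051; 0.0615 with only the arrays of the comparison), and the second replicate lay about 1.1 below the other two. The low dose had the same uneven replicate at 48 h, with 11.76, 10.89 and 11.86 (change 1.06, adjusted p = 0.00692); that call was lost without replicate 1 (0.93, adjusted p = 0.0539) or replicate 3 (0.88, adjusted p = 0.0526) of Nnm low and with only the arrays of the comparison (adjusted p = 0.0653). Nnm low at 24 h gave 12.70, 12.07 and 12.45 (change 1.39, adjusted p = 0.000942).

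Aa moved NQO1 in opposite directions at its 2 doses. Aa high raised it at 24 h, to 11.64, 11.68 and 11.43, against 11.06, 11.01 and 10.82 in controls (change 0.62, SE 0.17, adjusted p = 0.00605). At 48 h the high dose gave 11.09, 11.46 and 11.40, against 10.29, 10.55 and 10.77 in controls (change 0.78, adjusted p = 0.000776). Aa low at 48 h gave 9.82, 10.02 and 10.25 (change −0.51, adjusted p = 0.0266), every array below every control. That fall was lost with all arrays in 1 fit (adjusted p = 0.125), with only the arrays of the comparison (adjusted p = 0.0691), and without replicate 1 (−0.40, adjusted p = 0.116) or 2 (−0.50, adjusted p = 0.0546) of Aa low or replicate 2 (−0.50, adjusted p = 0.0654) or 3 (−0.39, adjusted p = 0.11) of its controls. The direct difference between doses was tested: high minus low was 0.93 at 24 h (adjusted p = 0.000827) and 1.28 at 48 h (SE 0.17, adjusted p = 2.86e-05), with 16.6% and 20.3% of genes tested called higher. Of the 2 probe sets not used here, 1 gave 0.40 for Aa high at 24 h (adjusted p = 0.0752).

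Ota lowered NQO1 at the later time, and Ota low lay below its controls at 24 h as well. Ota high at 72 h left 5.58, 7.43 and 5.25, against 9.60, 9.52 and 9.78 in controls, which is 0.0857 of the control level (change −3.55, SE 0.39, adjusted p = 1.15e-06). The second replicate fell less than the other two, and all 3 lay below every other array of the series; without any single array the change was −4.22 to −3.13. At 24 h NQO1 was 10.52, 10.80 and 10.16 with Ota high, against 10.43, 10.25 and 10.23 in controls (change 0.19, adjusted p = 0.684), so the groups overlapped. Ota low gave 8.39, 8.38 and 8.44 at 72 h, against 9.60, 9.52 and 9.78 in controls (change −1.23, adjusted p = 0.0423). Although those groups were more than 1 apart, the call was lost with no filter (adjusted p = 0.101), with arrays centred on their medians (adjusted p = 0.0502), and without any 1 of 11 arrays: each Ota low or control array of 72 h, each control of 24 h, or replicate 1 of Ota high or low at 24 h (changes −1.29 to −1.15, adjusted p = 0.0521 to 0.129). At 24 h Ota low had 9.51, 9.72 and 9.03, every array below every control, but was not called (change −0.88, limma adjusted p = 0.154). It was called in 1 fit of all arrays (0.00834) and with only the arrays of the comparison (0.0203). The same held without replicate 2 of Ota high at 72 h (0.00431) and in 1 NQO1 probe set not used here (−0.78, limma adjusted p = 0.0465). Ota high minus low was 1.07 at 24 h (adjusted p = 0.0265) and −2.32 at 72 h (adjusted p = 0.000112), beside 19.6% of genes called higher at 24 h and 37% lower at 72 h. The first of these was lost with no filter (adjusted p = 0.0558) and without replicate 1 (1.06, adjusted p = 0.0586) or 2 (0.92, adjusted p = 0.0848) of Ota high or replicate 3 of Ota low (0.88, adjusted p = 0.104).

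**Figure D2:**
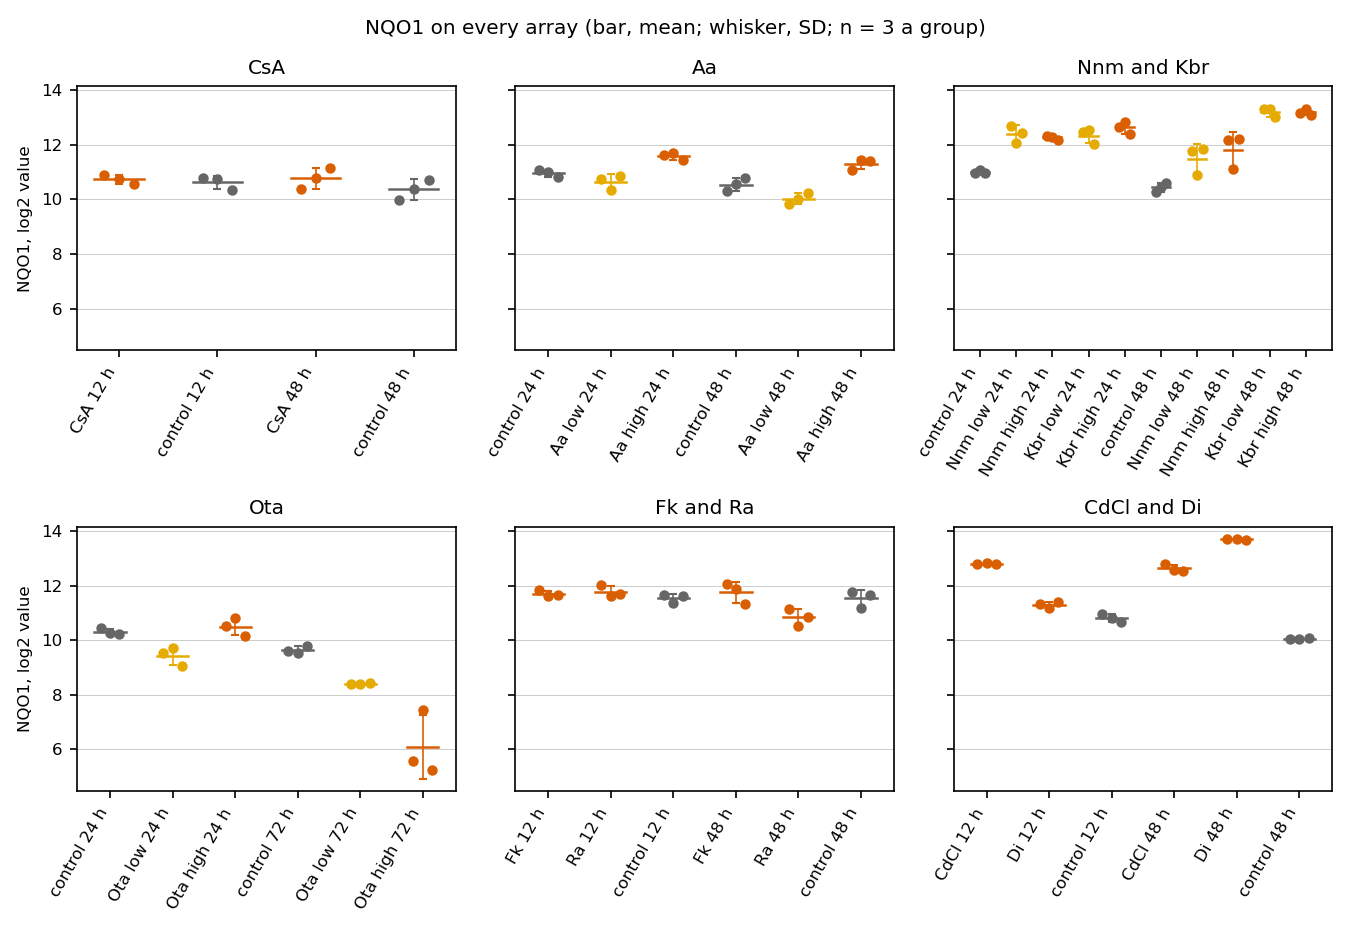
NQO1 log2 value on each array, points, with the group mean, bar, and SD, whisker (n = 3), in 6 panels by control family; controls are grey, low doses yellow and high or single doses orange. The 3 arrays of Di at 48 h, 13.68 to 13.72, lie at the top, and those of Ota high at 72 h, 5.25 to 7.43, lie below all others.

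Ordered by group mean, NQO1 ran over 38 groups with Di at 48 h at 13.70 ± 0.02 first, then Kbr low at 48 h (13.21 ± 0.17), Kbr high at 48 h (13.20 ± 0.12), CdCl at 12 h (12.80 ± 0.03), Kbr high at 24 h (12.64 ± 0.23) and CdCl at 48 h (12.63 ± 0.12; SD, n = 3 each). The arrays of neighbours in this order overlapped in all but 7 of 37 pairs, so most adjacent ranks were not separated; Di at 48 h was clear of Kbr low, and Kbr high at 48 h was clear of CdCl at 12 h. At the foot came Ota low at 24 h (9.42 ± 0.35), Ota low at 72 h (8.40 ± 0.03) and Ota high at 72 h (6.09 ± 1.18), each clear of the next. Control means spanned 9.63 (Ota, 72 h) to 11.53 (Fk and Ra, 12 h). CsA left NQO1 at 10.37, 10.80 and 11.15 at 48 h, against 9.98, 10.39 and 10.72 in controls (change 0.41, adjusted p = 0.517). Replicate numbers paired the CsA arrays, and with the replicate block 0 members were called higher or lower at 48 h. Ra gave 11.14, 10.53 and 10.84 at 48 h, against 11.76, 11.17 and 11.65 in controls (change −0.69, adjusted p = 0.0615). All Ra arrays were below all controls, and the difference passed with a trend in limma (adjusted p = 0.0454) or all arrays in 1 fit (adjusted p = 0.0297).

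CBR1, the main cytosolic carbonyl reductase for quinones and prostaglandins, moved less than NQO1: its 26 changes lay between −0.58 and 0.73. Kbr high at 48 h gave 10.68, 10.99 and 11.15, against 10.04, 10.17 and 10.41 in controls (change 0.73, SE 0.15, adjusted p = 0.000291), and at 24 h the rise was 0.70 (adjusted p = 0.00202). CdCl gave 11.03, 10.95 and 10.88 at 12 h, against 10.36, 10.32 and 10.22 in controls (change 0.66, adjusted p = 5.5e-05), and 0.60 at 48 h (adjusted p = 0.000105). Di raised it by 0.47 at 12 h (adjusted p = 0.00684; lost with all arrays in 1 fit, adjusted p = 0.177, or only the arrays of the comparison, adjusted p = 0.0767) and 0.54 at 48 h (adjusted p = 0.000232). The change with Di at 48 minus that at 12 h was 0.07 (adjusted p = 0.734), the only one of the 7 that did not pass the test. Kbr low raised CBR1 by 0.56 at 48 h (limma adjusted p = 0.00661, and 0.0548 with only the arrays of the comparison). Its 0.52 at 24 h was not called in the fit used here (limma adjusted p = 0.0816). That change passed with the replicate block (0.00327) and with only the arrays of the comparison (0.0484).

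None of the 4 Nnm groups changed CBR1 by more than 0.13 in either direction. Aa high at 48 h gave CBR1 10.58, 10.73 and 10.68, against 10.13, 10.31 and 10.55 in controls (change 0.34, adjusted p = 0.0355). That call was lost in 1 fit of all arrays (adjusted p = 0.0605), with only the arrays of the comparison (adjusted p = 0.0779), and without replicate 1 (0.24, adjusted p = 0.16) or 2 (0.33, adjusted p = 0.0789) of the controls or replicate 2 (0.30, adjusted p = 0.0968) or 3 (0.33, adjusted p = 0.0778) of Aa high. Aa low at 48 h changed it by 0.27, which was not called in the fit used here. That change passed with the replicate block (limma adjusted p = 0.0186) and without replicate 3 of its controls (0.38, limma adjusted p = 0.049). Ota high at 24 h gave CBR1 9.31, 9.70 and 9.77, against 10.02, 10.31 and 10.20 in controls (change −0.58, adjusted p = 0.00712), but the sign turned, to 0.07, with arrays centred on their medians. That centring moved the median gene of this comparison by 0.65.

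CBR3, a close relative of CBR1 with a narrower substrate range, lies beside it on chromosome 21 with 0 protein-coding genes between them in RefSeq. Its control means were low, 4.57 to 6.12. The largest rise was with Di at 48 h, with 5.59, 6.09 and 5.14, against 4.48, 4.67 and 4.55 in controls (change 1.04, SE 0.22, adjusted p = 0.00123). Aa high at 48 h gave 6.26, 6.40 and 6.10, against 5.32, 5.40 and 5.55 in controls (change 0.83, adjusted p = 0.000216). Aa low raised it by 0.50 at 48 h (adjusted p = 0.0193); the call was lost with all arrays in 1 fit (adjusted p = 0.117) and without replicate 1 (0.45, adjusted p = 0.0681) or 2 (0.49, adjusted p = 0.0539) of the controls or replicate 3 of Aa low (0.47, adjusted p = 0.0615). With CdCl CBR3 changed by 0.09 and 0.00, and with Kbr no group passed the test, although Kbr high at 24 h had 0.61 (adjusted p = 0.0968, and 0.049 with the replicate block). Of the 8 that raised CBR1, 2 raised CBR3.

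Nnm high at 24 h gave CBR3 6.85, 5.60 and 7.02, against 5.60, 5.60 and 5.61 in controls (change 0.89, adjusted p = 0.0118). The second Nnm array stood at the control level, and without it the change was 1.33 (adjusted p = 2.83e-05). The call was lost without replicate 1 (0.71, adjusted p = 0.0851) or 3 (0.62, adjusted p = 0.102) and with only the arrays of the comparison (adjusted p = 0.155). Nnm low at 24 h changed it by 0.73, which was not called in the fit used here (limma adjusted p = 0.0548). It passed with the replicate block (0.0236), a filter at log2 6 (0.0497), all arrays in 1 fit (0.0274) and without some single arrays. Ota high lowered CBR3 at 72 h, to 3.92, 4.04 and 3.53, against 4.57, 4.63 and 4.67 in controls (change −0.79, adjusted p = 0.000815), so that 2 of 3 arrays fell under log2 4. At 24 h it had 4.59, 4.58 and 4.60, against 4.99, 4.91 and 5.35 in controls (change −0.49, adjusted p = 0.0192); the call was lost with quantile normalization (−0.15, adjusted p = 0.439), in 1 fit of all arrays (adjusted p = 0.0711) and without replicate 3 of the controls (−0.36, adjusted p = 0.1), and the sign turned (0.15) with centring.

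EPHX1, which opens epoxides of drugs and polycyclic hydrocarbons to diols, was above log2 10 on every array. Di at 48 h gave 12.69, 12.54 and 12.64, against 10.48, 10.30 and 10.58 in controls (change 2.17, SE 0.11, adjusted p = 4.55e-10). At 12 h of Di the change was 0.06 (adjusted p = 0.769). CdCl raised it by 0.43 at 12 h (adjusted p = 0.00361; adjusted p = 0.29 with all arrays in 1 fit) and by 0.80 at 48 h, to 11.28, 11.38 and 11.11, against 10.48, 10.30 and 10.58 in controls (adjusted p = 2.01e-05). Aa high at 48 h gave 12.71, 12.13 and 12.54, against 11.82, 11.32 and 11.69 in controls (change 0.85, adjusted p = 0.00554). The second replicate was lowest in each of those groups, and each treated array exceeded the control of its own number. Kbr high at 48 h showed the same, with 13.03, 12.46 and 12.67, against 11.81, 11.26 and 11.63 in controls (change 1.15, SE 0.35, adjusted p = 0.00911).

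Kbr low at 48 h raised EPHX1 by 0.99 (adjusted p = 0.0368); this was lost with no filter (adjusted p = 0.0768) and without replicate 1 or 3 of Kbr low or any 1 of the 3 controls (0.82 to 1.11, adjusted p = 0.0514 to 0.143). In the Aa and the Nnm with Kbr families the replicate numbers paired the arrays, and there the block changed the call of EPHX1 more often than of any other member. Blocked, EPHX1 was called higher in all 8 Nnm and Kbr groups and in 3 of the 4 Aa groups, against 2 and 1 without the block. The changes it added were 0.56 with Aa high at 24 h (adjusted p = 0.000584), 0.38 with Aa low at 48 h (0.0104), 0.76 with Kbr high (0.00348) and 0.63 with Kbr low (0.0423) at 24 h, 0.67 with Nnm high (0.00598) and 0.94 with Nnm low (0.000892) at 24 h, and 0.81 with Nnm high (0.00185) and 0.53 with Nnm low (0.0409) at 48 h, each p adjusted. Their adjusted p without the block lay between 0.0612 and 0.424. Ota high at 72 h lowered EPHX1 to 10.27, 10.12 and 10.60, against 10.67, 10.87 and 10.83 in controls (change −0.46, adjusted p = 0.0153). That fall was lost with centring (−0.14, adjusted p = 0.47), in 1 fit of all arrays (adjusted p = 0.172) and without replicate 2 of Ota high (−0.35, adjusted p = 0.0719) or of its controls (−0.42, adjusted p = 0.0531).

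UGDH, the source of UDP-glucuronate for glucuronidation and for hyaluronan, rose most with Kbr. Kbr high at 48 h gave 13.18, 12.90 and 12.62, against 11.63, 11.58 and 11.38 in controls (change 1.37, SE 0.22, adjusted p = 2.68e-05). Kbr high at 24 h raised it by 1.08 (adjusted p = 0.00155) and Kbr low at 48 h by 1.13 (adjusted p = 0.000636), while 0.63 with Kbr low at 24 h passed with the replicate block alone (adjusted p = 0.00631, against 0.163 without). With CdCl UGDH was 12.72, 12.65 and 12.82 at 12 h, against 11.66, 11.66 and 11.70 in controls (change 1.06, adjusted p = 4.24e-06), and the rise was 0.47 at 48 h (adjusted p = 0.00395; 0.158 with all arrays in 1 fit). Di at 48 h gave 12.40, 12.56 and 12.48, against 11.37, 11.53 and 11.28 in controls (change 1.09, adjusted p = 1.92e-06).

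Aa high changed UGDH in opposite directions at its 2 times. At 24 h it had 12.19, 12.18 and 11.75, against 11.17, 10.99 and 11.03 in controls (change 0.98, SE 0.16, adjusted p = 0.000166). At 48 h it had 11.20, 10.84 and 10.72, against 11.58, 11.48 and 11.22 in controls (change −0.51, adjusted p = 0.0137), with no overlap at either time. The later fall was lost in 1 fit of all arrays (adjusted p = 0.0678) and without replicate 1 of the controls (−0.43, adjusted p = 0.0571) or replicate 3 of Aa high (−0.40, adjusted p = 0.0663). Aa low at 24 h changed UGDH by 0.44, which was not called in the fit used here (limma adjusted p = 0.068). It passed with the replicate block (0.0037), a trend in limma (0.0471) or centring (0.49, limma adjusted p = 0.0224). The doses differed by 0.54 at 24 h (adjusted p = 0.0237), a call lost in 1 fit of all arrays (adjusted p = 0.112), with only the arrays of the comparison (adjusted p = 0.0727), and without replicate 1 or 2 of Aa high or 2 or 3 of Aa low (0.47 to 0.50, adjusted p = 0.0692 to 0.0962). None of the Nnm groups, with changes of −0.11 to 0.33, nor the Ota groups, with −0.12 to 0.24, passed the test; centring turned Ota high at 24 h to 0.53 (adjusted p = 0.00516).

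PIR had its largest rise with Di at 48 h, with 11.16, 11.26 and 11.16, against 8.73, 8.52 and 8.24 in controls (change 2.70, SE 0.12, adjusted p = 1e-10). CdCl gave 10.16, 10.28 and 10.16 at 12 h, against 9.32, 9.23 and 9.32 in controls (change 0.91, adjusted p = 1.67e-05), and a rise of 1.18 at 48 h (adjusted p = 9.23e-07). Kbr low at 48 h gave 10.37, 10.26 and 10.39, against 8.57, 8.86 and 9.13 in controls (change 1.49, SE 0.2, adjusted p = 1.36e-05). Kbr high at 48 h raised it by 0.83 (adjusted p = 0.00123), and high minus low was −0.66 (adjusted p = 0.0383; 6.32% of genes called lower). PIR was thus the 1 member called lower at the high than at the low Kbr dose. That difference was lost with no filter (adjusted p = 0.0612), quantile normalization (0.0537), centring (0.0813), 1 fit of all arrays (0.143), and without any 1 of its 6 arrays (−0.71 to −0.58, adjusted p = 0.0718 to 0.124). At 24 h Kbr high raised PIR by 0.91 (adjusted p = 0.00204) and Kbr low by 1.10 (adjusted p = 0.011), the Kbr low call being lost without replicate 1 of the controls (1.09, adjusted p = 0.0789) or replicate 2 of Kbr low (1.01, adjusted p = 0.0592).

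Nnm raised PIR by 0.70 (high, adjusted p = 0.00899; 0.0579 with only the arrays of the comparison) and 0.90 (low, adjusted p = 0.00356) at 24 h. Nnm high at 48 h gave 9.97, 9.08 and 9.56, against 8.57, 8.86 and 9.13 in controls (change 0.68, adjusted p = 0.0132), and the groups overlapped. It was lost in 1 fit of all arrays (adjusted p = 0.0541), with only the arrays of the comparison (0.143), and without replicate 1 of Nnm high (0.47, adjusted p = 0.122) or of its controls (0.54, adjusted p = 0.0749). Nnm low at 48 h had 0.55, which was not called in the fit used here (limma adjusted p = 0.0628). It passed with the replicate block (0.0453) and without some single arrays (limma adjusted p = 0.0244 to 0.0484).

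PIR fell with Aa and early with Ota. Aa high at 48 h gave 7.39, 7.39 and 7.40, against 8.59, 8.90 and 8.94 in controls (change −1.41, SE 0.21, adjusted p = 3.31e-05). Aa low at 48 h gave 7.63, 8.19 and 7.73 (change −0.96, adjusted p = 0.00274). At 24 h both doses lay below all controls, by 0.48 (high) and 0.53 (low). These differences were not called in the fit used here (limma adjusted p = 0.0705 and 0.0847). They passed with the replicate block (0.0173 and 0.0189) and without replicate 2 of Aa low at 24 h (0.0442 and 0.0196). That of the high dose also passed with quantile normalization (0.044) and without replicate 2 of Aa high (0.0225). PIR fell in the Aa high cultures in which NQO1, EPHX1 and OSGIN1 rose. Ota high at 24 h gave 7.10, 7.10 and 5.45, against 8.89, 8.50 and 8.98 in controls (change −2.24, SE 0.45, adjusted p = 0.000468), and without any single array the change was −2.51 to −1.69. By 72 h it had 8.14, 6.51 and 8.58 with Ota high, against 7.83, 8.26 and 7.99 in controls (change −0.28, adjusted p = 0.608), with the second replicate apart. Ota high minus low was −1.86 at 24 h (adjusted p = 0.00247; 39.4% of genes called lower). NQO1 and PIR were thus lowered by Ota high at different times.

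OSGIN1 lay at the level of the array background in controls: 11 of 12 control groups averaged 3.41 to 3.83 and the Fk and Ra controls of 12 h averaged 4.16. Its changes are differences from background and understate a fold. Di at 48 h gave 7.68, 7.85 and 7.72, against 3.69, 3.28 and 3.72 in controls (change 4.19, SE 0.16, adjusted p = 3.45e-11); at 12 h it had 3.62, 3.65 and 3.75, at background like its controls. CdCl gave 6.04, 5.83 and 5.76 at 12 h, against 3.45, 3.64 and 3.66 in controls (change 2.30, adjusted p = 5.27e-08), and 2.02 at 48 h (adjusted p = 1.32e-07). Aa high gave 6.06, 5.70 and 5.61 at 24 h, against 3.58, 3.63 and 3.56 in controls (change 2.20, adjusted p = 1.67e-06). At 48 h Aa high had 6.72, 6.38 and 6.34, against 3.64, 3.30 and 3.47 in controls (change 3.01, adjusted p = 3.81e-08), and Aa low had 4.30, 4.60 and 4.39 (change 0.96, adjusted p = 0.00357). High minus low was 1.64 at 24 h (adjusted p = 9.46e-05) and 2.05 at 48 h (adjusted p = 6.41e-06), so that OSGIN1, like NQO1, separated the Aa doses at both times.

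Kbr high raised OSGIN1 to 6.39, 5.06 and 5.65 at 24 h, against 3.61, 3.51 and 3.26 in controls (change 2.24, SE 0.59, adjusted p = 0.00864; 1.89, adjusted p = 0.0501, without replicate 1). At 48 h the values were 6.80, 5.81 and 6.56, against 3.65, 3.09 and 3.48 in controls (change 2.98, adjusted p = 0.000208), and Kbr low raised it by 2.63 (adjusted p = 0.00176). Nnm high at 24 h gave 6.71, 3.65 and 6.81, against 3.61, 3.51 and 3.26 in controls (change 2.26, adjusted p = 0.00541). Its second array was at background; the call was lost without replicate 1 (1.77, adjusted p = 0.0523) or with only the arrays of the comparison (adjusted p = 0.125). In the other 3 Nnm groups the changes were 0.01 to 0.57 and not called. Over the 18 Ota arrays OSGIN1 exceeded log2 4 on 0, and over the 12 CsA arrays on 1, so it was not tested in those families. Fk at 48 h had 5.41, 4.90 and 4.51, against 3.50, 3.50 and 4.38 in controls (change 1.15, adjusted p = 0.762); Fk had 0 genes called in that comparison.

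**Figure D3:**
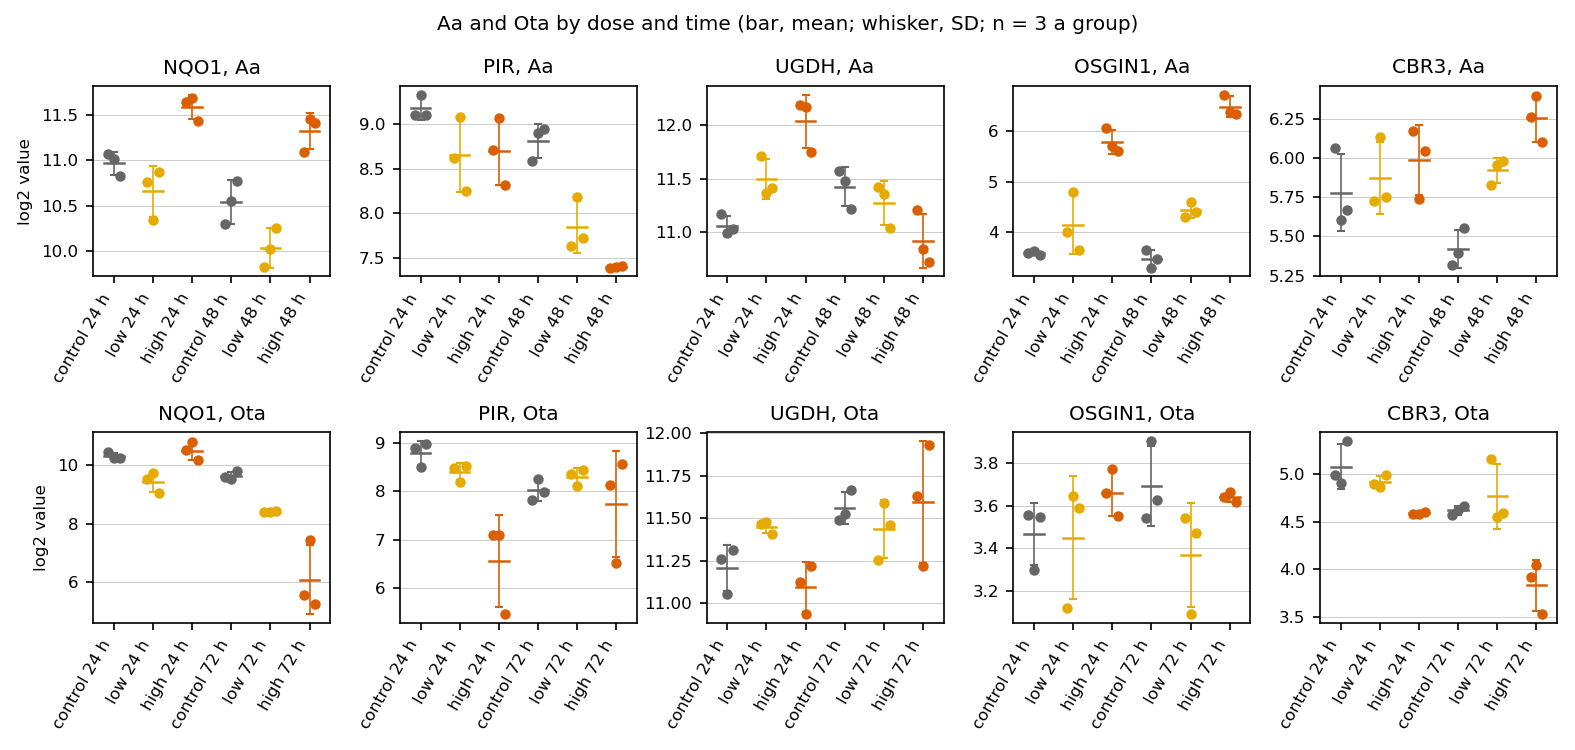
Log2 values of NQO1, PIR, UGDH, OSGIN1 and CBR3 on each array by dose and time, with Aa in the upper row and Ota in the lower (bar, mean; whisker, SD; n = 3); the axes differ between panels. With Aa high at 48 h NQO1 and OSGIN1 lie above control and PIR and UGDH below, and with Ota NQO1 is lowest at 72 h (6.09) and PIR at 24 h (6.55).

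Nnm was set directly against Kbr, which shared its controls, at each dose name and time; equal names are not equal doses. CBR1 was lower with Nnm in all 4 comparisons, with Nnm minus Kbr of −0.76 (high, 24 h, adjusted p = 0.000314), −0.61 (high, 48 h, adjusted p = 0.00127), −0.48 (low, 24 h, adjusted p = 0.0155) and −0.69 (low, 48 h, adjusted p = 0.000664). The third of these was lost without replicate 1 of Nnm low (−0.43, adjusted p = 0.0712) or replicate 2 (−0.44, adjusted p = 0.0598) or 3 (−0.46, adjusted p = 0.0572) of Kbr low. NQO1 did not pass the test at 24 h, with Nnm minus Kbr of −0.37 (95% interval −0.88 to 0.15) at the high and 0.06 (−0.45 to 0.58) at the low dose. At 48 h it was lower with Nnm, the differences being −1.37 (high, adjusted p = 6.48e-05) and −1.71 (low, adjusted p = 1.07e-05). UGDH was lower with Nnm too, with −0.94 (high, 24 h, adjusted p = 0.00184), −1.48 (high, 48 h, adjusted p = 7.27e-06) and −0.87 (low, 48 h, adjusted p = 0.00317). OSGIN1 was also lower, with −2.41 (high, adjusted p = 0.0013) and −2.62 (low, adjusted p = 0.000973) at 48 h, and PIR had −0.94 at the low dose at 48 h (adjusted p = 0.000507). CBR3 was called in none of the 4, with 95% intervals between −0.34 and 0.89. EPHX1 was not called either, with intervals between −1.19 and 1.04, except −0.47 at the low dose and 48 h with the replicate block (adjusted p = 0.0399). In order (high 24 h, high 48 h, low 24 h, low 48 h), 2, 4, 1 and 5 of 7 genes were lower with Nnm, beside 18.2%, 24.2%, 15.2% and 20.2% of all genes, and 0 were higher.

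**Figure D4:**
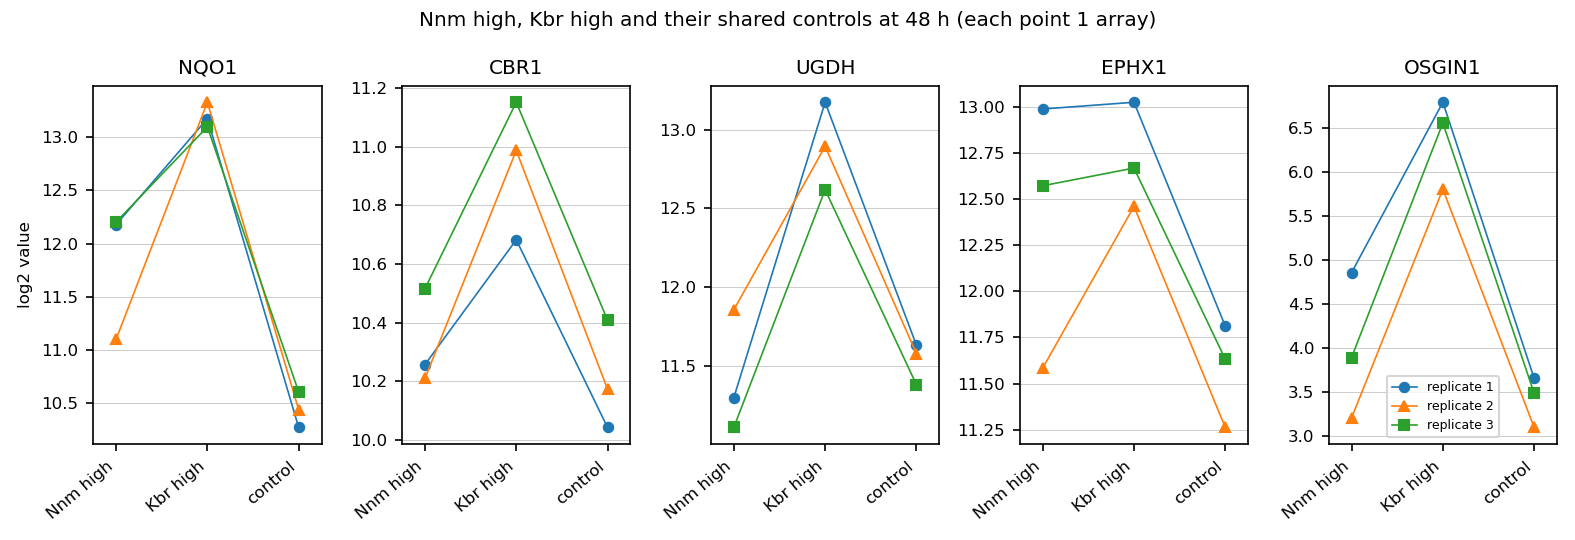
Log2 values of 5 members with Nnm high, Kbr high and their shared controls at 48 h; each point is 1 array and lines join arrays of the same replicate number. NQO1, CBR1, UGDH and OSGIN1 are highest with Kbr, and the EPHX1 lines run nearly in parallel apart from replicate 2 with Nnm, at 11.58.

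CdCl and Di shared controls too, and their order turned with time. At 12 h CdCl exceeded Di in NQO1 by 1.51 (SE 0.085, adjusted p = 3.92e-09), OSGIN1 by 2.20 (adjusted p = 8.96e-08), UGDH by 0.92 (adjusted p = 2.08e-05), PIR by 0.64 (adjusted p = 0.000468) and EPHX1 by 0.37 (adjusted p = 0.0114), 5 of 7 beside 15.2% of all genes. The EPHX1 difference was lost in 1 fit of all arrays (adjusted p = 0.424), with only the arrays of the comparison (adjusted p = 0.0663), and without replicate 2 of CdCl (0.29, adjusted p = 0.0582) or replicate 1 of Di (0.31, adjusted p = 0.0529); that of PIR was lost in 1 fit of all arrays (adjusted p = 0.0936). At 48 h Di exceeded CdCl in 6 of 7, beside 19% of all genes: CdCl minus Di was −2.17 in OSGIN1, −1.52 in PIR, −1.37 in EPHX1, −1.07 in NQO1, −1.04 in CBR3 and −0.62 in UGDH (adjusted p at most 0.0016, and 0.0591 for UGDH in 1 fit of all arrays). For CBR1 the difference was 0.18 (95% interval −0.02 to 0.38) at 12 h and 0.06 (−0.15 to 0.26) at 48 h.

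**Figure D5:**
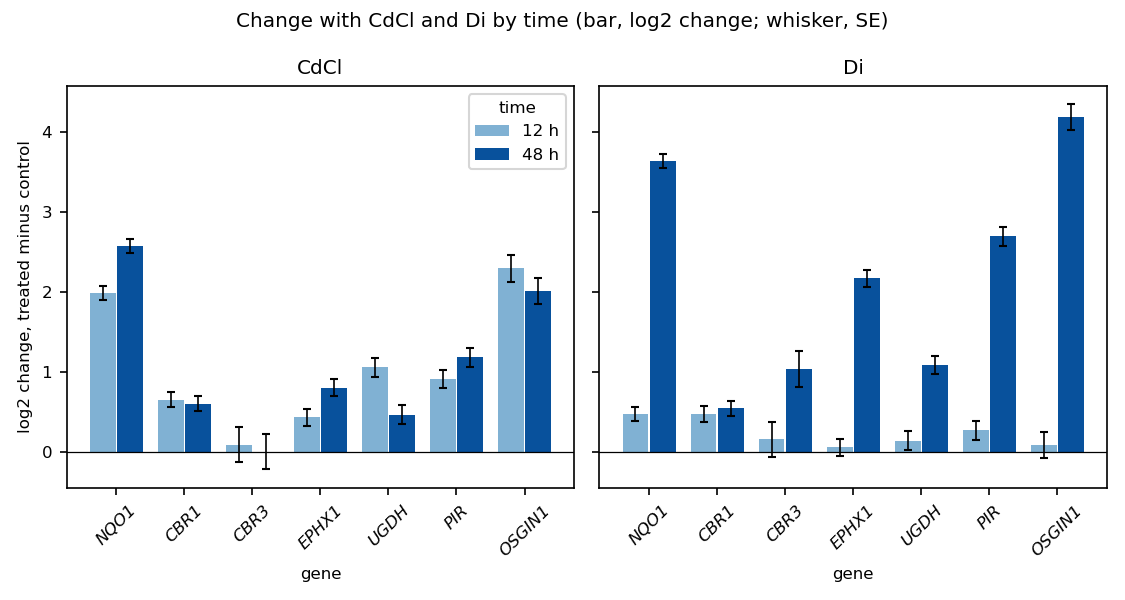
Log2 change from control, bars, with SE, whiskers, for CdCl (left panel) and Di (right panel) at 12 h (light) and 48 h (dark). CdCl raised 6 of the 7 genes at both times, while Di raised 2 at 12 h, by 0.47 to 0.48, and all 7 at 48 h, by 0.54 to 4.19.

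Fk and Ra, tested against each other over the same controls, differed in 2 members at 48 h (6.36% of genes higher with Fk): NQO1 by 0.91 (adjusted p = 0.027) and OSGIN1 by 1.28 (adjusted p = 0.0271). Both were lost with only the arrays of the comparison (adjusted p = 0.306 and 0.254), with centring (0.0513 and 0.0643) and without any 1 of replicates 1 and 2 of Fk or 2 and 3 of Ra (adjusted p = 0.0571 to 0.146 and 0.0623 to 0.146; changes 0.75 to 0.92 and 1.05 to 1.30), and OSGIN1 also with no filter (0.0617). At 12 h limma called 0 of 7 (0% of all genes), 0 had an unadjusted p under 0.05, and 0 were called with a trend or in 1 fit of all arrays. Between the 8 compound comparisons 7 of 56 member tests were higher and 18 lower for the first compound named, beside 17.7% and 15.5% of all gene tests.

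High and low doses were called apart in 11 of 54 member tests, 6 higher and 5 lower at the high dose, beside 9.92% and 14.7% of all gene tests. Besides those given above, Ota high at 72 h was below Ota low in CBR3 (−0.94, adjusted p = 0.000238) and EPHX1 (−0.48, adjusted p = 0.0129). The EPHX1 difference was lost with centring (−0.15, adjusted p = 0.464), in 1 fit of all arrays (0.158), with only the arrays of the comparison (0.06), and without replicate 2 of Ota high (−0.38, adjusted p = 0.0615) or replicate 3 of Ota low (−0.35, adjusted p = 0.077). Nnm doses were called apart by limma in 0 of 14 member tests (0% of all genes at both times), with 1 unadjusted p under 0.05 (OSGIN1 at 24 h, 1.75, adjusted p = 0.287; 0.0263 in 1 fit of all arrays). Kbr doses at 24 h were called apart in 0 of 7, with 0 unadjusted p under 0.05 and 0 calls with a trend or in 1 fit; over all genes 0.0544% were called apart there.

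The response to some compounds differed between times: of 88 tests of the change at the later minus that at the earlier time, 14 were called, 9 higher and 5 lower, beside 6.53% and 4.75% of all gene tests. They were 6 higher with Di (17.5% of all genes), 1 higher (21.1%) and 1 lower (9.34%) with CdCl, 2 higher (32.7%) and 2 lower (20.6%) with Ota high, and 2 lower (12.2%) with Aa high.

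Control cultures fell over time in 6 of 40 member tests and rose in 0, beside 10.1% and 8.12% of all gene tests; with the replicate block 1 was called higher. From 12 to 48 h the CdCl and Di controls fell in 4 of 7 genes (29.3% of all genes called lower): NQO1 (0.76 lower at 48 h, SE 0.085), CBR3 (1.04), PIR (0.79) and CBR1 (0.46), so the later responses of these genes were measured from a lower base. In the Fk and Ra controls (8.18% of all genes called lower) CBR1 was 0.92 lower at 48 h (adjusted p = 0.0151) and CBR3 1.08 lower (adjusted p = 0.0256). The CBR1 call was lost without replicate 3 of 12 h (0.89 lower, adjusted p = 0.059) or replicate 2 of 48 h (0.70 lower, adjusted p = 0.082). The CBR3 call was lost with no filter (adjusted p = 0.0554) and without replicate 1 or 3 of 12 h or 1 or 2 of 48 h (0.86 to 1.05 lower, adjusted p = 0.0832 to 0.131).

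Over the 26 changes from control, which share controls within families, the genes tested in all families (10523) were ranked by Pearson r with each member (n = 26 changes), as a description. Closest to NQO1 were TRIM16 (0.88), EPHX1 (0.86), GCLC (0.85), SGTB (0.83) and FTL (0.83). EPHX1 was closest to NQO1 (0.86), then GCLC (0.84), SRXN1 (0.82), GPAT3 (0.80) and FBXO42 (0.80). UGDH was closest to HNRNPC (0.85), GCLM (0.84) and BNC1 (0.83), PIR to MTMR2 (0.92), AKR1C3 (0.88) and STRN (0.87), CBR1 to TFPT (0.86), PSMA5 (0.86) and EARS2 (0.86), and CBR3 to CEP152 (0.74), NABP2 (0.71) and SPHK1 (0.71). OSGIN1 was not tested in all families and was not ranked. Among the members tested in all families, r lay between 0.07 (CBR3 with UGDH) and 0.86 (NQO1 with EPHX1).

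A list of other NRF2 targets, 22 of 24 in the table, was counted beside the members. This list and the others below were also chosen with earlier results of these data known. With Di at 48 h 22 of 22 tested were higher (21.4% of all genes; median change 1.93, against −0.02 over all genes), led by the heme oxygenase HMOX1 (5.36) and the aldo-keto reductase AKR1C1 (4.83). CdCl raised 18 of 22 at 12 h (14.5% of all genes), led by HMOX1 (6.14) and the cystine transporter SLC7A11 (4.74), and 17 at 48 h (22.9%), when 1 fell. At 48 h Kbr high raised 14 of 20 (22.2% of all genes) and lowered 1, led by HMOX1 (3.62) and GCLM (3.11), the regulatory subunit of glutathione synthesis. Nnm high raised 12 of 20 at 24 h (17.6% of all genes) and lowered 1, with SLC7A11 (3.37) and HMOX1 (2.72) highest. With Aa high at 48 h 7 of 20 rose (29.8% of all genes), led by the efflux pump ABCC3 (1.67), and 4 fell (34.5% of all genes), led by SLC7A11 (−2.48) and AKR1C3 (−1.10). Ota high raised 5 and lowered 6 of 20 at 24 h (21.4% and 43.6% of all genes), with AKR1C1 (−4.32) and AKR1C3 (−2.27) lowest, and raised 6 and lowered 5 at 72 h (25.3% and 37.9%), with SLC7A11 (−3.35) and SLC48A1 (−2.35) lowest. With CsA and Fk none of this list was called.

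Regulators of NRF2 moved unevenly. MAFG, a small MAF partner, rose in 10 and fell in 0 of 26 comparisons, highest with Aa high at 48 h (1.88) and Kbr high at 48 h (1.75). KEAP1 rose in 6, among them all 4 Aa groups (0.70 to 1.10) and Di at 48 h (1.09), and fell in 2, CdCl at 12 h (−0.96) and Ota high at 24 h (−1.28). NFE2L2 mRNA rose in 3, Kbr high at 48 h (0.87), Aa high at 24 h (0.83) and Ota high at 24 h (0.40), and fell in 3, CdCl at 48 h (−0.66), Ota high at 72 h (−0.42) and CdCl at 12 h (−0.35). BACH1, a repressor at AREs, rose in 2 and fell in 4, lowest with Ota high at 72 h (−1.08).

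Other quinone and carbonyl reductases (9 of 12 in the table, 8 tested in each family) were called higher in 20 and lower in 49 of 208 tests against control, which is 9.62% and 23.6%, beside 11.8% and 15.1% of all gene tests. Kbr high at 48 h raised 0 and lowered 5 of 8 (28.9% of all genes lower), with the p53-induced quinone oxidoreductase TP53I3 lowest (−1.72). Ota high at 72 h also raised 0 and lowered 5 (37.9% of all genes lower), with TP53I3 at −4.91. Di at 48 h raised 2, led by NQO2 (1.86), which uses dihydronicotinamide riboside in place of NADH, and lowered 5 (21.4% of all genes higher and 25.9% lower). Aa high at 48 h raised 4 and lowered 2 of 8 (29.8% of all genes higher and 34.5% lower). NQO2 rose with CdCl at both times (0.49 and 2.07). Among other enzymes that can reduce nitro groups (6 in the table, 3 to 4 tested), POR, the electron donor of microsomal cytochromes P450, rose in 10 and fell in 0 of 26 comparisons, highest with Di at 48 h (3.09), Kbr high at 48 h (2.64) and CdCl at 48 h (2.54). With Aa high it rose at 24 h (1.15) and 48 h (1.40), and with Aa low at 48 h (0.85). CYB5R3 fell with Aa high by 0.26 at 24 h and by 0.52 at 48 h. The conjugation enzymes that follow these steps, 10 tested in each family, were called higher in 19 and lower in 45 of 260 tests, which is 7.31% and 17.3%. Kbr high at 48 h raised 0 and lowered 6 (22.2% of all genes higher and 28.9% lower), with the glutathione transferase GSTK1 lowest (−2.20), in the cultures in which UGDH rose by 1.37. Of the aryl hydrocarbon receptor genes, Aa high at 24 h raised AHRR (2.74) and CYP1B1 (1.92) among 4 tested (26% of all genes higher). Di at 48 h, where NQO1 rose most, raised 0 of 3 and lowered CYP1B1 (−2.05), beside 21.4% of all genes higher and 25.9% lower.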

How the data were processed

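RNA of HK-2 cultures, 3 in each of 38 groups, was measured on 1-colour Affymetrix arrays. The authors deposited 1 table of log2 values, made with GCRMA over all arrays together per the submitters' processing notes; its version is not given in the sources used here, and the number of arrays limits the precision. Of 54675 probe sets, 41091 carried 1 gene symbol, 1801 several, 11721 none and 62 were array controls, which gave 19775 genes. Genes were kept where the log2 value exceeded 4 on 3 or more arrays of a control family, with the probe set of the highest mean standing for a gene, and NQO1's 3 probe sets were also fitted each on its own. One group-mean model per family was fitted with limma 3.58.1 (R 4.3.3), with Benjamini-Hochberg adjustment over 10806 to 11138 genes. This covered 61 comparisons: 26 against control, 8 of doses, 8 of compounds, 13 of times of response and 6 of control times. Nothing says that replicates came from independent passages, so p-values measure the spread between these cultures; alone, 3 against 3 cannot go below an exact permutation p of 0.1. The members and the other gene lists were chosen with earlier results of these data known. All members were named where called; from each other list at most the 2 called genes with the largest change each way, the regulators NFE2L2, KEAP1, BACH1 and MAFG anywhere, and for likeness the 3 or 5 genes of highest r; NQO2, POR and CYB5R3 were named beyond it after their values were seen. Replicate numbers paired the arrays in the CsA, Aa and Nnm with Kbr families, where every correlation of same-numbered deviations exceeded 0.1 (lowest 0.534, 0.28 and 0.139), and not in the 3 other families (lowest −0.274 with CdCl and Di, −0.176 with Fk and Ra, −0.0542 with Ota). Alternatives changed the filter, probe set, normalization, moderation, arrays in the fit, block and single arrays. The script was tested on simulated data: of genes shifted by 1 on the log2 scale, 79.1% were recovered for CdCl and 77.6% for Di at 48 h (11045 genes), 73.1% for Aa high at 48 h (11106 genes), 65.7% for Kbr high and 64.2% for Nnm high at 48 h (11036 genes), 65.7% for Ota high at 72 h (11138 genes), 53.7% for CsA at 48 h (10806 genes), and 38.8% for Fk and 40.3% for Ra at 48 h (10889 genes). No genome build is named for the table, so coordinates are given for RefSeq promoter windows alone.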

Additional observations from a re-analysis of the deposited data

Results flagged for a closer look

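Between the times sampled, 14 of 88 differences in response (change from control at the later minus that at the earlier time, limma interaction term) passed an adjusted p of 0.05, 9 higher and 5 lower, beside 6.53% and 4.75% of all gene tests.

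With Di 6 of the 7 genes had a larger change at 48 than at 12 h, beside 17.5% of genes tested. OSGIN1 is among the 6 and passed the filter in this family through treated arrays alone, so it adds no support of its own. The differences were 4.10 in OSGIN1 (adjusted p = 7.47e-09), 3.17 in NQO1 (adjusted p = 1.02e-10), 2.43 in PIR (adjusted p = 5.27e-08), 2.11 in EPHX1 (adjusted p = 9.8e-08), 0.95 in UGDH (adjusted p = 0.000419; 0.0579 in 1 fit of all arrays) and 0.88 in CBR3 (adjusted p = 0.0421). The CBR3 difference was lost without any 1 of 11 arrays: replicate 3 of CdCl at 12 h, replicate 1 of CdCl at 48 h, replicates 1 and 2 of Di at either time, replicates 1 and 3 of the 12 h controls, and each of the 48 h controls (0.64 to 0.93, adjusted p = 0.0506 to 0.107). It was also lost with no filter (limma adjusted p = 0.0898), 1 fit of all arrays (0.0834), only the arrays of the comparison (0.0567) and the replicate block (0.063). CBR3 averaged 5.77 with Di at 12 h and 5.61 at 48 h, while its controls averaged 5.61 and 4.57. With CdCl the difference was 0.59 in NQO1 (adjusted p = 0.00183; 0.348 in 1 fit of all arrays) and −0.59 in UGDH (adjusted p = 0.0133; 0.324 in 1 fit of all arrays).

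With Ota high the difference between 72 and 24 h was −3.74 in NQO1 (SE 0.55, adjusted p = 4.79e-05), 1.95 in PIR (SE 0.64, adjusted p = 0.0181), 0.73 in CBR1 (adjusted p = 0.018) and −0.59 in EPHX1 (adjusted p = 0.0307). PIR was lost without replicate 3 of Ota high at 72 h (1.53, limma adjusted p = 0.052), and CBR1 without replicate 1 of Ota high at 24 h (0.59, limma adjusted p = 0.0503). CBR1 was also lost with centring (0.39, limma adjusted p = 0.192). EPHX1 was lost without any 1 of 7 arrays: replicates 1 and 3 of the 24 h controls, replicate 2 of Ota high at 24 h, replicates 2 and 3 of the 72 h controls, and replicates 1 and 2 of Ota high at 72 h (−0.57 to −0.48, adjusted p = 0.056 to 0.0733). It was also lost in 1 fit of all arrays (limma adjusted p = 0.238).

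With Aa high the difference between 48 and 24 h was −1.48 in UGDH (SE 0.23, adjusted p = 0.000959) and −0.93 in PIR (adjusted p = 0.043). PIR was lost without any 1 of 11 arrays: replicates 1 and 3 of the 24 h controls, 1 and 2 of Aa high and 1 of Aa low at 24 h, each of Aa high at 48 h, 2 and 3 of the 48 h controls, and 3 of Aa low at 48 h (−0.93 to −0.74, adjusted p = 0.0501 to 0.113). It was also lost with no filter (limma adjusted p = 0.0801), quantile normalization (0.0678), centring (0.0669) and 1 fit of all arrays (0.105). With the replicate block 4 more passed: OSGIN1 (0.81, adjusted p = 0.0464) and CBR3 (0.63, adjusted p = 0.0408) with Aa high, UGDH with Aa low (−0.59, adjusted p = 0.0224) and NQO1 with Kbr high (1.14, adjusted p = 0.0486).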

How the results depend on the processing

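Of 70 calls of members against control, 46 held in every alternative that tested them and without every single array. So did 7 of 11 between doses, 6 of 14 between times, 19 of 25 between compounds and 4 of 6 over time in controls. The filter at log2 6 tested 387 of 414 member results. CBR3 was untested there in the Ota and the CdCl with Di families, and OSGIN1 in the Fk with Ra family. An untested result was counted as held. Leaving out 1 array at a time gave 57 to 64 higher and 9 to 13 lower against control (59 and 11 with all arrays), 5 to 8 and 4 to 6 between doses (6 and 5), 8 to 11 and 4 to 6 between times (9 and 5), 5 to 8 and 17 to 18 between compounds (7 and 18), and 0 to 1 and 4 to 9 in controls (0 and 6). With arrays centred on their medians, 7 were lower against control, and 10 higher and 3 lower between doses. With Ota high at 24 h the changes of CBR1 (0.0699), CBR3 (0.15) and UGDH (0.53) then turned from negative to positive. Of these 3, UGDH alone was called after centring. In 1 fit of all arrays 3 were lower between doses and 2 between times. With only the arrays of the comparison 4 were higher between compounds, and 2 higher and 12 lower in controls. A rule of at least 2-fold left 32 higher and 4 lower against control. One NQO1 probe set turned the CdCl difference between times (−0.0552). The cause of these shifts was not tested. With the replicate block, 74 were higher and 14 lower against control, and 1 was higher in controls; where the numbers pair the arrays the block added 28 calls to 234 tests and removed 0, and it changed no other call there than those given, CBR3 in the CsA controls (−0.61, adjusted p = 0.0417), UGDH in the Aa controls (0.36, adjusted p = 0.0266) and, high minus low Aa, EPHX1 (0.42, adjusted p = 0.00789, at 24 h and 0.47, adjusted p = 0.00252, at 48 h), PIR (−0.45, adjusted p = 0.0265) and UGDH (−0.35, adjusted p = 0.00747) at 48 h. Against control, the block also raised the number of all genes called in every Aa, Nnm and Kbr comparison. In the other families, whose samples share only a number, it added 2 and removed 1 of 180. Scaling moved the median gene by over 0.1 with Ota high at 24 h (0.229 quantile, 0.647 centred) and 72 h (0.314 centred), Ra at 48 h (0.23 and 0.257), CdCl at 12 h (0.151 centred), Ota low at 24 h (0.138 centred) and Kbr high at 48 h (0.103 centred). It also moved the share of higher among all calls by over 10 points: with centring 48.6% (29.7% as deposited) for CdCl at 12 h, 55.7% (30.5%) for Di at 12 h, 51.5% (37.9%) for Kbr high at 24 h, 64.2% (32.9%) and 57.7% (40%) for Ota high at 24 and 72 h, 53.7% (27.1%) for Ota low at 24 h and 55.3% (20.1%) for Ra at 48 h. Quantile normalization gave 42.4% for Di at 12 h, 43.9% for Ota high at 24 h and 50.6% for Ra at 48 h. Levels near log2 4, as for OSGIN1 and CBR3, lie close to array background, which limits their folds.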
